A study of Homo sapiens with 4 samples.

Results

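Gene deserts are stretches of a megabase or more that hold few or no protein-coding genes. Here 8 large ones on the human autosomes were described by peaks from a study of H3K9me3, trimethylated lysine 9 of histone H3. Each desert is defined by its position on the build hg19, and the rule uses no peak value, but the set was proposed with earlier results of these data known. Together they spanned 23.8 Mb. They held 3516 of the 326823 peaks of one deposited list, called list 1, and 2806 of the 265052 peaks of the other, called list 2. The cells were U2OS, an established human osteosarcoma line that carries the name KRAB-IDR3-TCF3 in all labels, where it is not explained. There were 2 samples precipitated with an antibody against H3K9me3 and 2 input samples without antibody. Labels of both antibody samples name list 2 and those of both input samples name list 1, although the peaks of each list carry names of an immunoprecipitation. The lists were therefore not assigned to a group. They are given side by side, no value has a replicate error, and the sequencing depth is unknown. The cell line label could not be set against marker genes, since peak lists hold no expression.

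H3K9me3 is laid down by histone methyltransferases such as SUV39H1 and SETDB1 and is read by HP1 proteins, which bind the mark through a chromodomain and compact the chromatin around it. It is best known from satellite repeats around centromeres, from transposable elements and from clusters of zinc finger genes. Gene deserts are commonly replicated late and placed near the nuclear lamina, and many lie beside genes of the nervous system or of cell adhesion. The title of the series concerns the local density of the mark along the genome. Followed here along each desert is the share covered by the peaks of each list.

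The desert on chromosome 1 ran from 190.5 to 192.1 Mb, between BRINP3, a gene of neural cells, and RGS18, a regulator of G protein signalling in platelets. That on chromosome 3 ran from 82.0 to 84.9 Mb, between GBE1, the glycogen branching enzyme, and CADM2, a synaptic adhesion protein. The chromosome 4 desert, from 134.2 to 138.4 Mb, lay between the protocadherin genes PCDH10 and PCDH18, and the chromosome 5 desert, from 27.1 to 30.9 Mb, between the cadherin genes CDH9 and CDH6. The chromosome 9 desert, from 10.7 to 12.6 Mb, lay between PTPRD, a receptor tyrosine phosphatase of neurons, and TYRP1, an enzyme of melanin synthesis. Chromosome 14 held a pair of deserts. The proximal one ran from 26.0 to 29.0 Mb, with STXBP6, a regulator of vesicle fusion, to its left. The distal one, from 82.0 to 85.9 Mb, lay between SEL1L, a component of protein degradation at the endoplasmic reticulum, and FLRT2, a guidance and adhesion protein. The chromosome 16 desert, from 58.9 to 61.4 Mb, lay between GOT2, a mitochondrial aminotransferase, and the cadherin gene CDH8. These neighbours are background knowledge of the gene map. In the RefSeq gene order on GRCh38.p14, which was read for order only, 0 protein-coding genes stood between the neighbours of the deserts on chromosomes 1, 3, 9 and 16. In that order 1 stood between the neighbours of the chromosome 4 desert, PABPC4L, which is related to the poly(A)-binding proteins. For the distal chromosome 14 desert and the chromosome 5 desert it was 1 unnamed locus each. The proximal chromosome 14 desert was not read in this order, so whether it holds protein-coding genes was not checked. No gene was placed on the hg19 coordinates of a desert.

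The deserts were not empty of peaks in either list, and most were covered somewhat more than the 2 Mb on either side. Peaks of list 1 covered 52.8% of the summed desert length, against 44.1% of the summed flanks. Those of list 2 covered 24.9% of the deserts and 20.9% of the flanks (25.6% and 24.4% without peak-free stretches of at least 50 kb). The median over the 8 deserts, which does not weight them by length, was 47.7% in list 1 and 17.6% in list 2. For comparison, the median of 773 other windows of 3 Mb on the autosomes was 50.2% and 26.4%, so the typical desert stood close to other windows in list 1 and below them in list 2. The range over deserts was wide, with 26.6% to 73.0% in list 1, while list 2 had 9.48% to 46.8%.

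**Figure D1:**
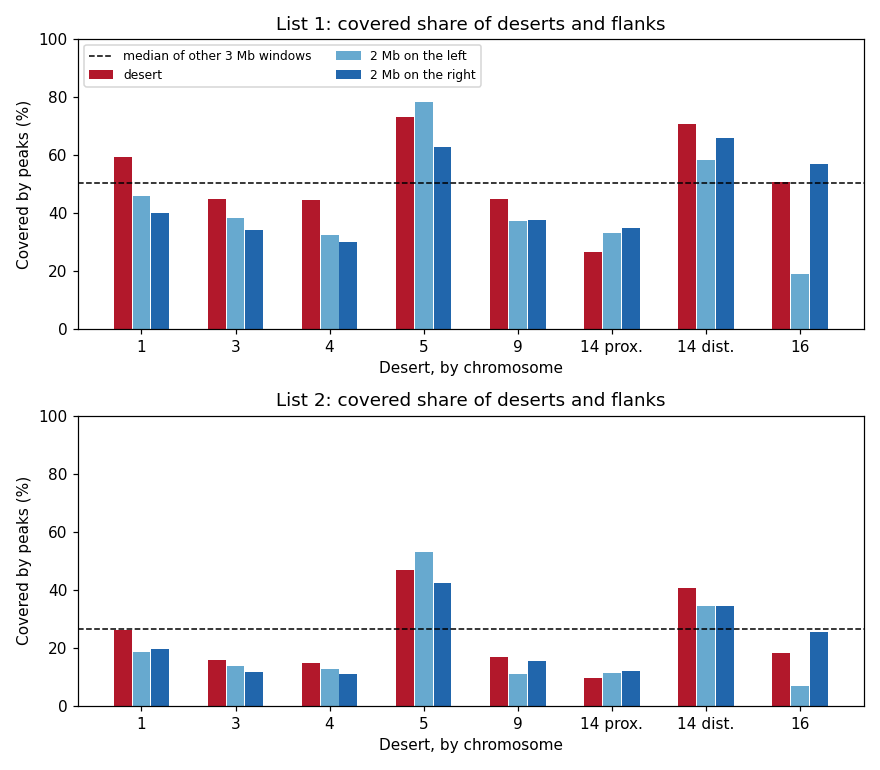
Percentage of each region covered by peaks, for the 8 deserts (red) and the 2 Mb to the left and right of each, in list 1 (top) and list 2 (bottom); the dashed line is the median of 773 other autosomal 3 Mb windows. The chromosome 5 desert and the distal chromosome 14 desert stood highest at 73.0% and 70.7% in list 1, and the proximal chromosome 14 desert was lowest at 26.6%.

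The chromosome 5 desert was covered most, with 73.0% in list 1 and 46.8% in list 2. Its left flank was covered 78.1% and 53.0%, and its right flank 62.8% and 42.4%. The desert therefore lay between its flanks in both lists, within a stretch in which all regions were highly covered. The distal chromosome 14 desert followed with 70.7% in list 1, against 58.3% on the left and 65.9% on the right, and with 40.5% in list 2, against 34.3% and 34.5%. It stood above both flanks in each list. The chromosome 1 desert was covered 59.2% in list 1, against 45.9% on the left and 40.1% on the right, and 26.3% in list 2, against 18.7% and 19.7%.

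The other deserts were covered less. Those on chromosomes 3, 4 and 9 were nearly alike, at 44.8%, 44.6% and 44.7% in list 1 and at 15.6%, 14.9% and 17.0% in list 2. Each of these 3 exceeded both of its flanks in both lists, and the flanks had 30.0% to 38.3% in list 1, while list 2 gave them 11.0% to 15.3%. The chromosome 16 desert, at 50.6% and 18.1%, lay between very unequal flanks. Its left flank, on the side of GOT2, had 19.1% (list 1) and 6.87% (list 2), and its right flank, on the side of CDH8, 56.9% and 25.4%. The proximal chromosome 14 desert was the exception in direction, with 26.6% in list 1 against 33.2% and 34.7%, and 9.48% in list 2 against 11.4% and 12.1%, below both flanks in both lists.

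As a ratio of the desert to both of its flanks together, the covered share was above 1 in 7 of 8 deserts in list 1 and in 6 of 8 in list 2. Among the other 3 Mb windows, set against their own 2 Mb flanks in the same way, 49% were above 1 in list 1 and 48.6% in list 2. The ratio was under 1 in 1 desert of list 1 and in 2 of list 2, against 51% and 51.4% of the windows. The median ratio of the deserts was 1.22 in list 1 (range 0.785 to 1.43) and 1.203 in list 2 (0.809 to 1.37), and that of the windows 0.995 and 0.991. A ratio of at least 1.2 was reached by 4 deserts in each list, against 17.9% and 26.4% of the windows. Both lists had 6 of 8 deserts above 1, against 42.9% of the windows. The largest ratio in list 1 was that of chromosome 4, at 1.43 (1.26 in list 2), and the largest in list 2 that of chromosome 1, at 1.37 (1.38 in list 1). The chromosome 5 desert, the most covered one, had ratios of 1.04 and 0.981, and these did not share a direction. A ratio of at most 1/1.2 was found in 1 desert of each list, the proximal one on chromosome 14, against 20.7% and 28.2% of the windows.

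This excess in list 1 held under a limit on fold and was nearly absent under a stricter limit on p. With the peaks above the median fold of list 1, still 1 of 8 deserts was covered less than its flanks, at 36.1% of the summed deserts and 29.1% of the flanks. List 1 goes down to weaker peaks than list 2, whose highest p in the authors' column was 0.0265. When the peaks of list 1 above that p were dropped, 5 of 8 deserts were covered less than their flanks, against 51% of the windows, and the summed shares were 12.1% in deserts and 11.7% in flanks, a ratio of 1.03. Of the peaks of list 1 with their midpoint in a desert, 12.9% passed this limit, against 13.9% in the flanks and 19.6% on all autosomes. Under it the chromosome 4 desert still had a ratio of 1.495 (4.06% against 2.72%) and the chromosome 1 desert one of 1.21 (10.6% against 8.72%), and the chromosome 9 desert had 0.551 (2.33% against 4.22%). Whole peaks were dropped and none was called anew.

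The rest of each chromosome was taken outside the deserts, their flanks and any stretch of 1 Mb or more without a peak. Covered more than this rest were 4 deserts in list 1 and 3 in list 2, which was not counted for the other windows. On chromosome 1 in list 2 the desert and the rest were close, at 26.3% and 26.0%. The chromosome 5 desert exceeded a rest of 56.3% in list 1 and 33.9% in list 2. The distal chromosome 14 desert exceeded a rest of 44.6% and 23.9%, and the proximal one lay below the same rest. The 2 deserts of chromosome 14 thus bracketed their chromosome, at 70.7% for the distal and 26.6% for the proximal desert in list 1. On chromosome 9 the desert and the rest were close in list 1, at 44.7% and 44.8%, and apart in list 2, at 17.0% and 24.8%.

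The order of the deserts was nearly the same in both lists. By covered share, 6 of 8 held the same rank, from chromosome 5 at the top, through the distal chromosome 14 desert and chromosomes 1 and 16, down to chromosome 4 and the proximal chromosome 14 desert. Only chromosomes 3 and 9, which were nearly equal in list 1, changed places. The lists were further apart where coverage was low. Coverage in list 2 was 0.641 times that in list 1 on chromosome 5 and 0.574 times in the distal chromosome 14 desert, and between 0.334 and 0.444 times in the other 6.

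The deserts held many peaks for their length, and in list 2 the peaks of most deserts were narrow. List 1 had a median of 162 peaks per Mb over the 8 deserts, against 118 over the other windows, and list 2 had 115 against 97. Peak density was above that of the adjoining flanks in 7 of 8 deserts in list 1, against 50.1% of the windows, and in 7 of 8 in list 2, against 48.9%. In list 1, 5 deserts lay above the 90th percentile of the windows (9.57% of the windows do). They were those on chromosomes 1, 3, 4, 9 and 16, with 159, 166, 168, 171 and 169.6 peaks per Mb. Their flanks together had 138, 158, 137, 150 and 119 in the same order. On chromosome 1 the left flank alone had 161 and the right flank 115. In list 2, 3 deserts lay above that percentile (9.7% of the windows). These were chromosomes 1 and 5 with 134 and 135 and the distal chromosome 14 desert with 155. The lowest density in list 2 was 63.7 peaks per Mb, in the proximal chromosome 14 desert, against 72 in its flanks. With list 1 held to the p limit of list 2, the order turned, as the deserts had a median of 14.7 peaks per Mb and the windows 23.3, and only the chromosome 5 desert, which is not among those 5, lay above the 90th percentile. With the peaks above the median fold of list 1, 3 deserts did, those on chromosomes 1 and 5 and the distal one on chromosome 14, and of these only chromosome 1 is among the 5 named for all peaks. In list 2, chromosome 5 and the distal chromosome 14 desert did so with peaks above the median fold.

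Median peak width in list 2 was 1084 bp on chromosome 3, 1037 bp on chromosome 4, 1091 bp on chromosome 9, 984 bp in the proximal chromosome 14 desert and 1099 bp on chromosome 16. These 5 lay below the 10th percentile of the windows, as 10.1% of the windows do, and the median over windows was 1572 bp. Their flanks also had narrow peaks in list 2, with medians of 1093, 1057.5, 1074.5, 1128 and 1228.5 bp in the same order. In list 1 only the proximal chromosome 14 desert, at 1286 bp, was that narrow (9.96% of the windows), and the median over deserts was 1993 bp against 2118 bp over windows. Width separated the highly covered pair from the rest. The median peak was 4317 bp on chromosome 5 and 3710 bp in the distal chromosome 14 desert in list 1, with only 113 and 124 peaks per Mb. In list 2 these deserts had both wider peaks, 2277 bp and 1654 bp, and more of them than most windows. Against their own flanks, the median peak was wider in 6 of 8 deserts in list 1 and in 3 of 8 in list 2, where 51.2% and 50.2% of the windows had wider peaks than their flanks.

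**Figure D2:**
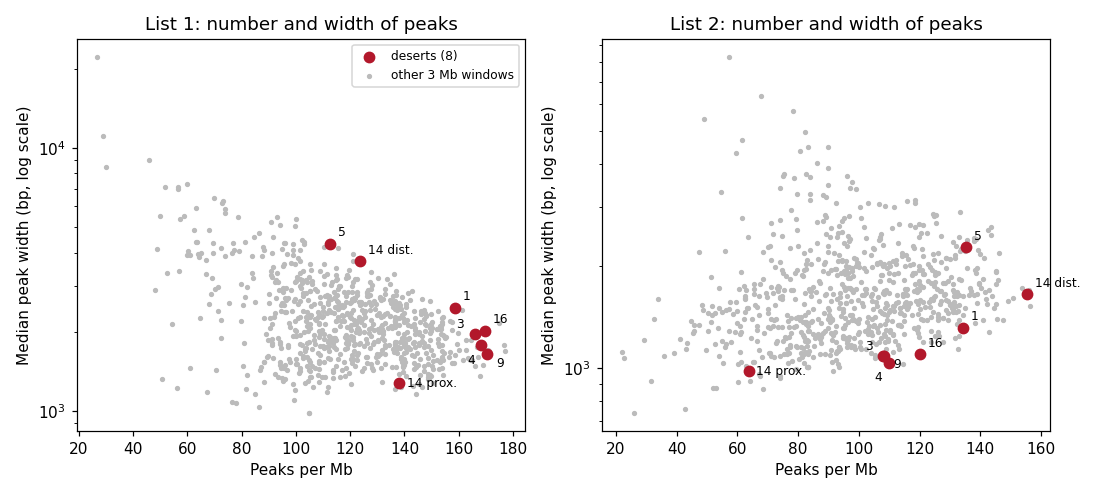
Peaks per Mb (x axis) against median peak width in bp (y axis, log scale) for the 8 deserts (red, labelled by chromosome) and 773 other autosomal 3 Mb windows (grey), in list 1 (left) and list 2 (right). In list 1 the deserts on chromosomes 1, 3, 4, 9 and 16 lie at the dense edge with 159 to 171 peaks per Mb, and those on chromosomes 3, 4, 9 and 16 and the proximal one on chromosome 14 lie at the narrow edge in list 2.

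Wide peaks were uncommon. Peaks of at least 10 kb made up 6.97% of the desert peaks in list 1, against 5.91% in the flanks and 10.0% on all autosomes. In list 2 they were 1.78% in the deserts, 2.06% in the flanks and 4.58% on the autosomes. Of the 245 such desert peaks in list 1, chromosome 5 held 87 and the distal chromosome 14 desert 82, and of the 50 in list 2 they held 28 and 18. The deserts on chromosomes 3, 4 and 9 and the proximal one on chromosome 14 held 0 in list 2. The widest desert peak of list 1 was 77.0 kb, on chromosome 5 from 30585176 to 30662129, with a fold enrichment of 2.16 over the background of the peak caller. The widest of list 2 was 31.4 kb, also on chromosome 5, from 30280197 to 30311569, with a fold of 2.46. The widest peak of the distal chromosome 14 desert was 43.6 kb in list 1, from 84993600 to 85037233, and 20.3 kb in list 2, from 82418182 to 82438507. In the 4 deserts without such peaks in list 2, the widest peak there was 7.09 to 9.75 kb.

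By the authors' own values for each peak, the fold in the deserts was low but close to that of all autosomal peaks. Few desert peaks had a low q-value. The median fold was lowest in the proximal chromosome 14 desert, at 1.56 in list 1 and 2.01 in list 2, and highest on chromosome 5, at 1.78 and 2.19. Over all desert peaks together the median fold was 1.63 and 2.08, over the flank peaks 1.61 and 2.08, and over all autosomal peaks 1.65 and 2.12. The highest fold in any desert was 2.51 in list 1 and 3.46 in list 2, both on chromosome 5. Counting peaks by midpoint, 0 of the 3514 desert peaks of list 1 and 20 of the 2806 of list 2 had a q-value of at most 0.05. Such peaks were rare throughout list 1, with 2 of 4250 in the flanks and 614 of 309756 (0.198%) on the autosomes. The share in list 2 was 0.713% in the deserts against 0.935% in the flanks and 2.12% on the autosomes. Of these 20, chromosome 5 held 12, the distal chromosome 14 desert 4, chromosome 1 held 3 and chromosome 4 held 1. Only 1 desert peak, on chromosome 5 in list 2, had a −log10 q of 2 or more. In list 2 so did 1 flank peak and 663 of the 256524 autosomal peaks.

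Coverage was evenly spread along most deserts. It was measured in bins of 100 kb, and its spread as the coefficient of variation, which is the SD over bins divided by their mean. The median over deserts was 0.181 in list 1, against 0.391 over the other windows, and 0.371 in list 2, against 0.572. In list 1, 7 of 8 deserts lay under the 10th percentile of the windows (10.1% of the windows do), and in list 2, 4 of 8 did (10.1%). The lowest coefficient among the deserts was 0.155 on chromosome 5 in list 1 and 0.259 on chromosome 1 in list 2. The proximal chromosome 14 desert was uneven, at 0.434 and 0.761. Some single flanks, of 20 bins each, were more even than their desert. In list 1 these were the left flank on chromosome 5 (0.0937) and the right flanks of the proximal (0.365) and distal (0.190) chromosome 14 deserts. In list 2 it was only the left flank on chromosome 5 (0.159, against 0.289 in the desert). Deserts were 16 to 42 bins long and windows 30, and against windows of 2 Mb the counts were 5 and 3. The low spread was found in fewer deserts when weak peaks were left out. With the peaks above the median fold, 3 deserts of list 1 and 2 of list 2 lay under the 10th percentile, and with list 1 held to the p limit of list 2 it was 1, and the median over deserts was then 1.05 against 0.942 over windows.

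**Figure D3:**
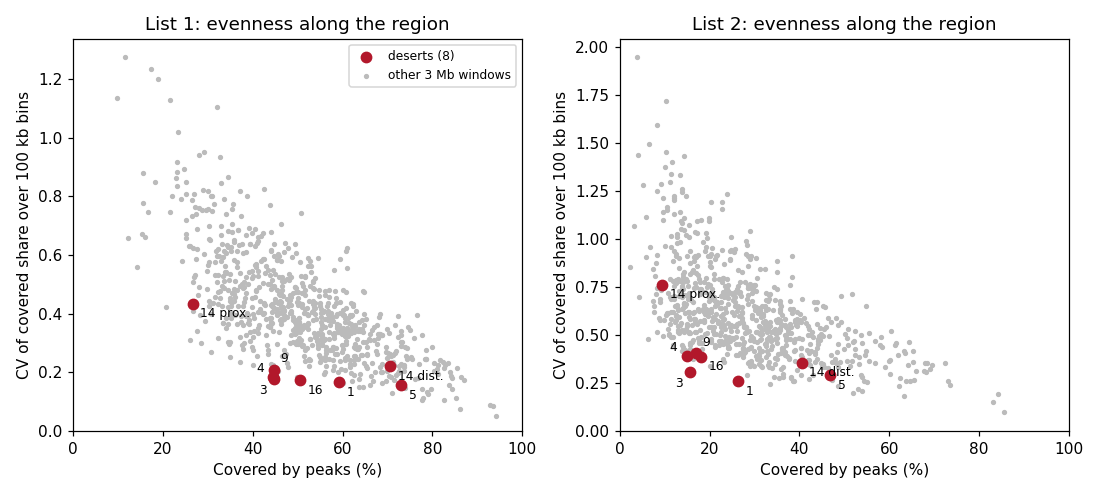
Covered share (x axis, %) against the coefficient of variation of the covered share over 100 kb bins (y axis) for the 8 deserts (red, labelled by chromosome) and 773 other autosomal 3 Mb windows (grey), in list 1 (left) and list 2 (right). Windows with more coverage vary less, and most deserts lie along the lower edge of the cloud, with the proximal chromosome 14 desert at 0.434 and 0.761 inside it.

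The chromosome 1 desert never fell under 41.5% in list 1 or 12.2% in list 2, both in the bin from 190600001 to 190700000, and its highest bin by the lower of the lists, from 191600001 to 191700000, had 64.2% and 35.2%. On chromosome 5 the highest bin, from 30600001 to 30700000, reached 94.4% (list 1) and 81.6% (list 2). The lowest bin there, from 28600001 to 28700000, had 41.5% and 7.05%, well inside the desert. This dip held the longest peak-free stretch of the desert in both lists, 14.2 kb in list 1, from 28614733 to 28628935, and 27.4 kb in list 2, from 28613180 to 28640610.

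Whether genes lie in the proximal chromosome 14 desert was not checked. It had several bins of very low coverage. That from 26900001 to 27000000 held 6.30% (list 1) and 0% (list 2), and the bin centred 1.45 Mb from the start of the desert held 2.57% and 0.434%. The highest bin by the lower of the lists, from 26600001 to 26700000, had 46.8% and 23.6%. The longest peak-free stretch there was 80.0 kb in list 1, from 26997205 to 27077234, while that of list 2 ran from 26895643 to 27084136, which is 188 kb. Apart from this desert, 0 peak-free stretches of at least 50 kb were found in list 1. In list 2 there were 8 in all deserts, with 6 in the proximal chromosome 14 desert and 1 each on chromosome 3 and in the distal chromosome 14 desert. The flanks held more such stretches. By desert, in order of chromosome, the 4 Mb of flanks held 2, 0, 3, 0, 1, 1, 0 and 4 in list 1. In list 2 these flanks held 4, 1, 9, 2, 7, 11, 2 and 12. The one in the distal desert was 119.5 kb long, from 85646423 to 85765923, near the right border on the side of FLRT2, where the bin from 85700001 to 85800000 was covered 16.2% and 1.69%. In list 1 the longest stretch of that desert, 27.6 kb from 85726480 to 85754091, lay inside it.

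**Figure D4:**
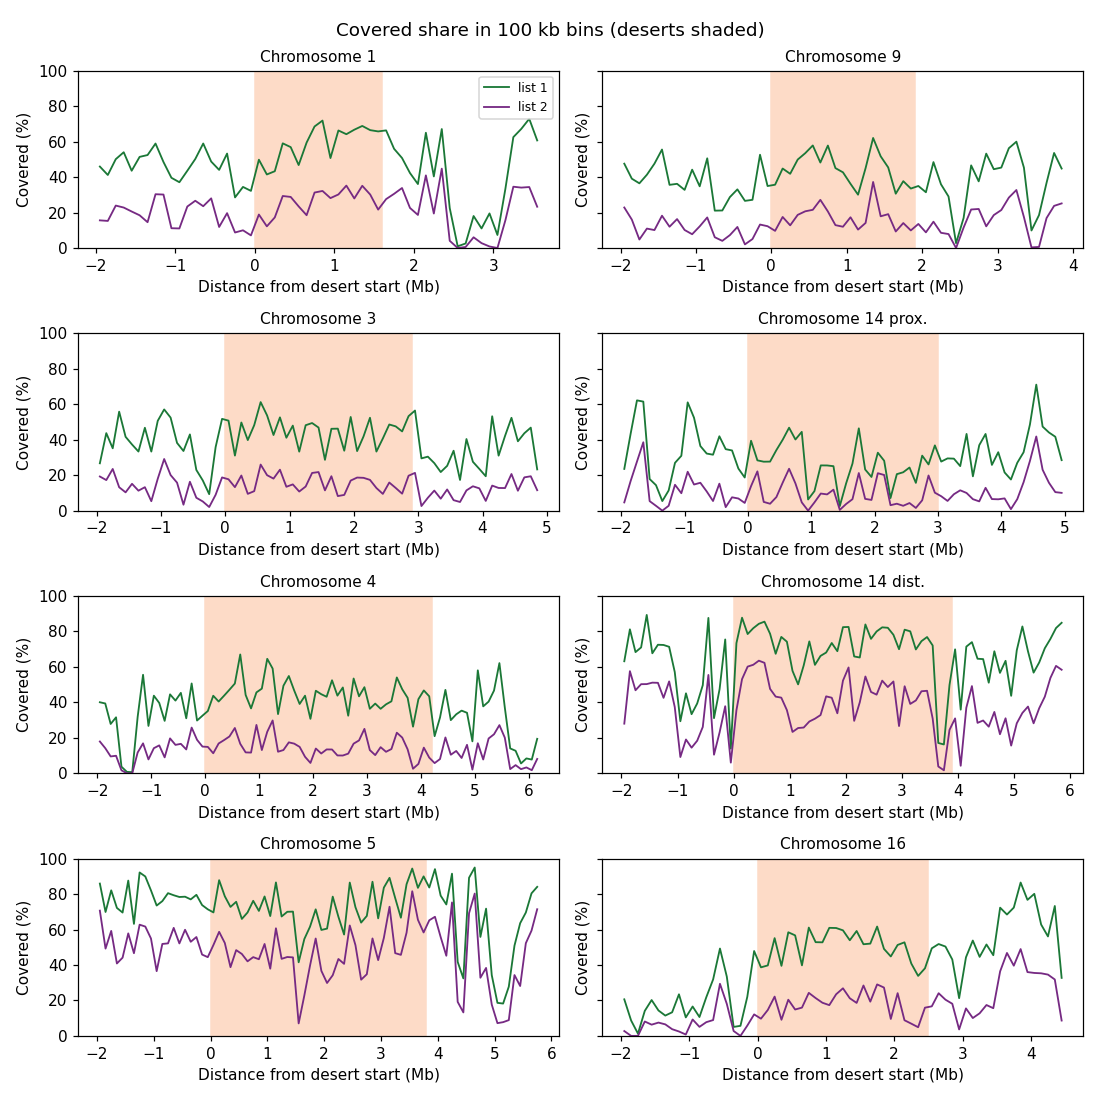
Covered share in 100 kb bins (y axis, %) against the distance from the start of each desert in Mb (x axis), in list 1 (green) and list 2 (purple), with the desert shaded and 2 Mb shown on either side. The lists rise and dip together, as at the dip inside the chromosome 5 desert (41.5% in list 1 and 7.05% in list 2) and near the right border of the distal chromosome 14 desert (16.2% and 1.69%).

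The lists followed each other along each desert. Spearman's rho of the covered share across bins, a description of neighbouring bins that are not independent, was highest on chromosome 9 (0.896 over 19 bins) and in the distal chromosome 14 desert (0.894 over 39 bins). It was lowest on chromosome 4 (0.540 over 42 bins). The share of peaks that overlapped a peak of the other list by at least 1 bp was 51.9% in list 1 (1824 of 3514, Wilson 95% interval 50.3 to 53.6%) and 87.8% in list 2 (2463 of 2806, 86.5 to 88.9%). In the flanks it was 47.9% and 87.1%, and on all autosomes 51.9% and 90.5%. These intervals cover counting error only. Within the deserts the share of list 1 ranged from 32.6% in the proximal chromosome 14 desert to 71.2% in the distal one. When peaks had to share at least 50% of each, the shares over all deserts were 12.8% in list 1 and 16.1% in list 2. With list 1 held to that p limit, 77.1% of the 455 peaks left in list 1 and 20.6% of those of list 2 had a partner. With peaks above the median fold in both lists, the shares were 42.1% and 74.6%.

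Coverage was higher just inside most borders of the deserts than just outside. Over the 16 borders of the deserts, the 500 kb inside were covered more than the 500 kb outside at 13 borders in list 1 and at 10 in list 2, with a median difference of 5.91 and 3.32 percentage points. At the 1546 borders of the other 3 Mb windows the inside was covered more in 49.8% of cases in list 1 and 49.6% in list 2, where a border shared by adjoining windows counts from each side and so gives close to equal shares. The size of the difference, without its sign, had a median of 8.95 points at desert borders and 10.2 points at window borders in list 1, and of 3.50 and 7.73 points in list 2, so the typical step was smaller at the deserts. The largest step was at the left border of the distal chromosome 14 desert, beside SEL1L, with 81.2% inside and 51.1% outside in list 1, and 54.7% inside and 26.6% outside in list 2. At the left border of the chromosome 16 desert, on the side of GOT2, coverage was 46.3% inside and 22.8% outside in list 1, and 15.2% and 7.75% in list 2. The right border of the distal chromosome 14 desert had the opposite step, 46.4% inside and 63.2% outside in list 1, and 21.5% inside and 29.9% outside in list 2. On chromosome 5 neither border showed a step of over 2 points, with 84.0% inside and 84.5% outside at the right border in list 1.

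Joined domains, made of peaks less than 10 kb apart, filled most of the deserts in list 1 and few of them in list 2. Domains of at least 100 kb took up 82.1% of the summed desert length in list 1, against 62.6% of the flanks, and 28.1% in list 2, against 19.1%. On all autosomes they took up 64.4% and 28.2%. By desert the share in list 1 exceeded that of the flanks in 7 of 8 cases, against 50.8% of the windows, and in list 2 in 6 of 8, against 46.1%. It reached 98.1% on chromosome 5, 95.01% in the distal chromosome 14 desert, 94.3% on chromosome 16 and 93.8% on chromosome 1 in list 1, and was 29.4% in the proximal chromosome 14 desert. List 2 split the deserts more sharply, with 72.4% on chromosome 5 and 71.5% in the distal chromosome 14 desert, 27.6% on chromosome 1, 3.73% to 9.75% on chromosomes 3, 4, 9 and 16, and 0% in the proximal chromosome 14 desert. With peaks joined under 3 kb, the share in list 1 was 11.7% in the deserts and 7.86% in the flanks.

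The longest domain within a desert in list 1 lay on chromosome 14, from 83184736 to 85629171, with 314 peaks. It took up 62.7% of the distal desert. On chromosome 1 a domain from 190821601 to 192411960 took up 79.9% of the desert and ran past its right border. A domain on chromosome 5 from 24648664 to 28467530 took up 36.0% of the desert, and only 35.8% of its own length lay inside. In list 2 the longest was again in the distal chromosome 14 desert, 861 kb from 82002927 to 82863510, beginning at the left border, where no domain crossed in either list. In the proximal chromosome 14 desert the longest domain was 351 kb in list 1, from 26351351 to 26702342, and 57.0 kb in list 2, from 26478636 to 26535661. A domain crossed 15 of 16 desert borders in list 1, against 83.6% of the window borders, and 8 of 16 in list 2, against 57.8%.

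**Figure D5:**
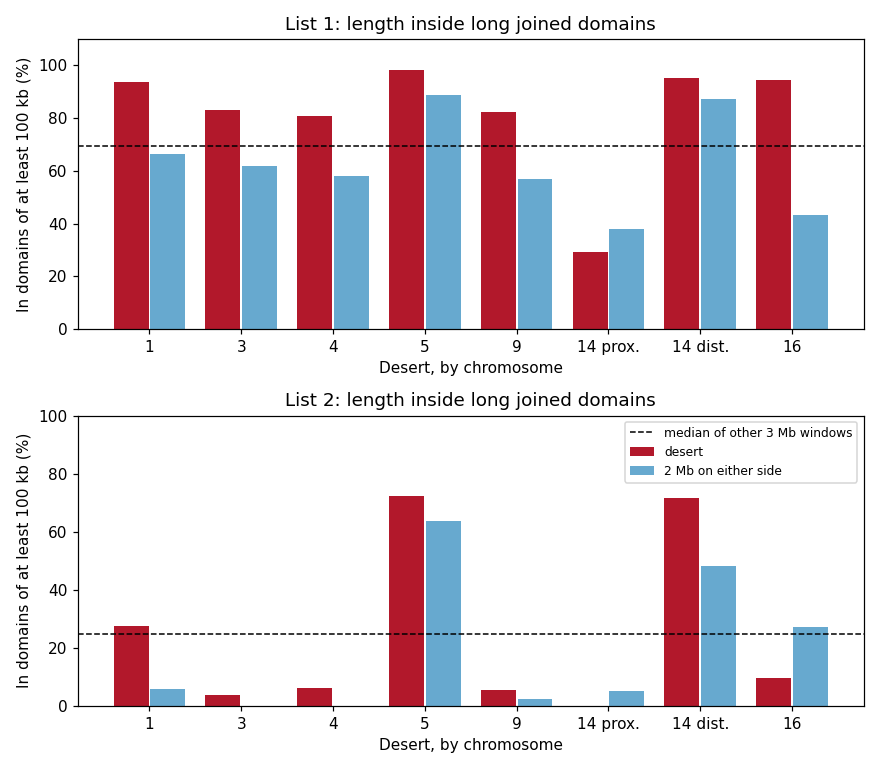
Percentage of length inside joined domains of at least 100 kb (peaks less than 10 kb apart) for each desert (red) and the 2 Mb on either side together (blue), in list 1 (top) and list 2 (bottom); the dashed line is the median of 773 other autosomal 3 Mb windows. In list 2, only the chromosome 5 desert (72.4%), the distal chromosome 14 desert (71.5%) and the chromosome 1 desert (27.6%) exceed that median.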

How the data were processed

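Chromatin immunoprecipitation and input libraries of U2OS cells were processed on hg19 by the authors. The submitters' processing notes name MACS2 2.2.7.1, Bowtie2 2.5.0, Trim Galore 0.6.7 and bcl2fastq 2.17 without role or order. Cutoffs, the control used, duplicates and pooling are not stated there. The deposited files are 2 broad peak lists. The deposited fold of each peak is a ratio over the peak caller's background, and the deposited −log10 p and −log10 q are the authors' values. Depth is unknown.

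Covered share, peaks per Mb (by midpoint), widths, joined domains and 100 kb bins were computed for 8 deserts and 2 Mb either side. The background was 773 consecutive autosomal 3 Mb windows, without those that touch a desert and those within 2 Mb of a chromosome end or of a peak-free stretch of at least 1 Mb. No test was possible, since each list is 1 set of values. The coverage step was tested on simulated lists, and the joining and overlap steps on a small hand-made case. The deserts and measures were chosen with earlier results of these data known. Described within each desert and list, by rule, were the widest peak, the longest domain, the longest peak-free stretch and the extreme bins, with examples printed. Alternatives were flanks of 1 and 5 Mb, stricter peaks, base pairs in both lists, trimmed deserts, removal of peak-free stretches, other joining limits and other overlaps. Coordinates are 1-based. The tools were scipy 1.17.1, pandas 2.3.3, numpy 2.4.6, matplotlib 3.10.9 and Python 3.11.15.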

Additional observations from a re-analysis of the deposited data

How the results depend on the processing

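No paired analysis was possible because each list is 1 set of values assigned to no sample. The left or right flank alone, the windows of 2 and 4 Mb, and the density and evenness counts with stricter peaks were chosen after seeing the data. A ratio was taken as moved when it changed by more than the SD of the log2 ratios over the 8 deserts (0.279 in list 1 and 0.247 in list 2), which describes deserts and is no replicate error.

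The summed covered share of deserts over flanks stayed above 1 in both lists under every alternative but one. It was 0.623 in list 2 with −log10 q of at least 2, where 1 desert peak was left, and list 1 gave no value there. Without peak-free stretches of at least 50 kb, little of the excess in list 2 was left. The summed ratio there was 1.05 (25.6% in deserts against 24.4% in flanks), against 1.19 with these stretches kept. List 1 gave 1.17 without them. Without each desert in turn the summed ratio was 1.18 to 1.24 in list 1, while list 2 gave 1.15 to 1.22. The number of deserts covered less than their flanks was 1 in list 1 and 2 in list 2. In list 1 it was 2 with flanks of 1 Mb, with base pairs in both lists, and with the left or the right flank alone, and 5 at the lowest −log10 p of list 2. In list 2 it was 1 with flanks of 1 Mb, 3 with flanks of 5 Mb and with peaks above the median fold, and 4 without peak-free stretches of at least 50 kb. The ratio of a single desert changed its side of 1 in 8 of 72 recomputed values of list 1 and in 9 of 65 of list 2. In list 1 it turned at that −log10 p to 0.551 on chromosome 9, 0.850 on chromosome 5, 0.873 in the distal chromosome 14 desert and 0.927 on chromosome 16. Chromosome 16 also turned to 0.890 against its right flank, and chromosome 5 to 0.970 with flanks of 1 Mb, 0.964 with base pairs in both lists and 0.934 against its left flank. In list 2, chromosome 16 (1.12 with all peaks) turned to 0.829 with flanks of 5 Mb, 0.979 with peaks above the median fold, 0.773 without the peak-free stretches and 0.713 against its right flank. Chromosome 5 turned to 1.03 with flanks of 5 Mb and 1.10 against its right flank, chromosome 3 to 0.877 with flanks of 5 Mb, chromosome 4 to 0.994 without the peak-free stretches, and the proximal chromosome 14 desert to 1.02 with flanks of 1 Mb. The cause was not tested.

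The number of deserts above the 90th percentile of density in list 1, 5, was 3 with peaks above the median fold and 1 at the lowest −log10 p of list 2. The number under the 10th percentile of bin variation, 7 in list 1 and 4 in list 2, was 3 and 2 with peaks above the median fold, and 1 in list 1 at that −log10 p. The share of desert peaks with a partner, 51.9% in list 1 and 87.8% in list 2, was 12.8% and 16.1% with a reciprocal overlap of 50%, 42.1% and 74.6% with peaks above the median fold, and 77.1% and 20.6% at the limit. List 2 had no flank domain of 100 kb when peaks were joined under 3 kb, so that ratio was not computed. Unknown depth and the few peaks of low q limit what stricter settings can show.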
